A study of Solea senegalensis with 8 samples.

Results

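The genes agt, which encodes angiotensinogen, and nkcc2, which encodes a Na-K-2Cl cotransporter, were followed on 8 microarrays of Senegalese sole (Solea senegalensis) larvae reared at 10 or 36 ppt of salinity. The study's list of genes measured by quantitative PCR gives a transcript number for each gene, and the probes Contig49603 (agt) and Contig39473 (nkcc2) were taken for them because they carry the same numbers. This match was not checked against the probe sequences. These are 2 of the 43441 distinct non-control probes. Each had 1 spot on the array, and neither spot was marked as an outlier or saturated on any array.

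Embryos spawned by a captive broodstock were kept at the test salinity from the gastrula stage, and larvae were sampled whole at day 3 post hatch, in pools of about 100. Each array received Cy3-labelled cRNA from a single pool. There were 4 arrays for 10 ppt, a dilute water, and 4 for 36 ppt, which is close to seawater. The 8 arrays lay on 2 slides, with replicates 1 and 2 of both salinities on slide 1 and replicates 3 and 4 on slide 2. The labels describe 2 rearing tanks per salinity and the methods describe 3, both fewer than the 4 arrays, and the sources used here do not link pools to tanks. At least 2 arrays of a salinity thus came from the same tank, and the tests leave out the spread between tanks. In RNA of whole larvae, a change in the number of the cells that make a transcript and a change in its amount per cell cannot be told apart.

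Angiotensinogen is a secreted protein, made mainly in the liver, that renin cleaves in the first step towards the hormone angiotensin II. In fishes angiotensin II raises blood pressure and stimulates drinking, by which marine teleosts replace the water lost to the sea. Nkcc2, named slc12a1 in other vertebrates, is a membrane carrier that takes up sodium, potassium and chloride together across the apical membrane. It recovers salt in the diluting segment of the vertebrate kidney, and in the intestine of marine teleosts it takes up ions from swallowed seawater so that water can follow. Its paralog nkcc1 (slc12a2) serves salt secretion in the gill. The RefSeq annotation of the species holds 1 gene each with the symbols agt, slc12a1 and slc12a2, and the 2 probes are tied to their genes by the shared number alone.

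The sequences that identify the 2 transcripts are the primers the study designed for its quantitative PCR, printed 5′ to 3′ with the last 5 bases, from which the polymerase extends, in capitals. The agt pair had 25 bases each and 52% and 60% G and C, and the nkcc2 pair had 27 bases each and 48.1% and 51.9%.
agt forward: gaatcgggacatcgaagccaAACTG
agt reverse: cccgcttcctgtgtcttgtcCTGAG
nkcc2 forward: tccaaactggccaacgtcatctTTGTG
nkcc2 reverse: ttaagcctttgcgaggtgctcaGGAGT
The primers name the transcripts and were not the source of any value below, all of which come from the array spots.

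The salinity labels of the 2 deposits run opposite to each other. The scanner files give the intensity of every spot, and a separate table gives log2 values of the same arrays. Over 42769 spots, each column of that table followed the scanner file of the other salinity with the same replicate number (Pearson's r of 0.9979 to 0.9996) more closely than the file with its own label (r of 0.219 to 0.664). The array files alone do not settle which labels are right. Arrays are called by the labels of their scanner files, and each direction holds for those labels. The study's own text follows the direction of the table, which is the opposite one. The paper also measured both genes by quantitative PCR in larvae of both salinities, with the higher salinity as the reference. It reports that the PCR bore out its array result, so the PCR as reported goes with the direction of the table. The PCR measurements were not among the files used here, and their direction was not tested.

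The arrays differed in background, which bears on both genes. In both salinities, replicates 2 and 4 failed the grid check of the image software. On these 4 arrays the median signal of the negative control spots was 140.5 and 2511 at labelled 10 ppt and 1349 and 1138 at labelled 36 ppt, while arrays with a passed grid had 52 to 84.5. A signal is called well above background where the software found it so, and the number of such probes ran between 4239 and 16192 per array.

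The agt signal was lower on every array labelled 10 ppt than on any array labelled 36 ppt. The processed signal, which is the brightness of the spot after background subtraction and removal of spatial trends, was 746 ± 84.8, 470 ± 280, 546 ± 122 and 2982 ± 650 on replicates 1 to 4 labelled 10 ppt. It was 4167 ± 424, 4480 ± 826, 3631 ± 372 and 3853 ± 499 on replicates 1 to 4 labelled 36 ppt, where ± is the error the image software assigned to the spot. The 4 arrays labelled 36 ppt lay close together and all were well above background. At labelled 10 ppt only replicates 1 and 4 were well above background, and replicate 4 stood apart from the other 3.

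After scaling, in which the 75th percentile of each array was subtracted on the log2 scale, agt was 0.65, -0.39, -0.0012 and 1.60 on replicates 1 to 4 labelled 10 ppt, and 2.18, 2.21, 2.34 and 2.34 on replicates 1 to 4 labelled 36 ppt. The means were 0.46 ± 0.87 at labelled 10 ppt and 2.27 ± 0.084 at labelled 36 ppt (SD, n = 4 each). The salinities did not overlap, and the highest array labelled 10 ppt lay 0.58 log2 units under the lowest array labelled 36 ppt. The mean difference, 10 minus 36 ppt, was -1.81, which is 3.50-fold. Its SE was 0.32 by limma, from a variance shared by all detected probes, and 0.44 from the spread of agt alone. By limma the adjusted p was 7.7e-07 over the 4587 detected probes, those well above background on all 4 arrays of at least 1 salinity, and 0.625 over all 43441 probes. The filter bears on the first of these values, since agt passed it only through labelled 36 ppt, where it is high. An exact two-sided permutation test of the 8 values gave p = 0.0286, the smallest that 4 against 4 arrays allow. This test takes the 8 arrays as independent, and with the exchange kept within the 4 replicate numbers the exact p was 0.125, the smallest possible there.

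The fall of agt stood within a general shift of the detected probes under this scaling. Of these, 20.7% were called in either direction and 20% were called lower at labelled 10 ppt, and 15% of those with a value on every array had all arrays labelled 10 ppt below all arrays labelled 36 ppt. The median difference of the detected probes was -0.40, so that agt lay 1.40 log2 units below the median probe. Over all probes the median difference was 0.13. For the detected probes it was -0.038 under quantile normalization and -0.92 when scaled to the mean of the spike-in spots. A fall as large as that of agt or larger was found for 148 of the 4587 detected probes (3.23%) and for 268 of all 43441 probes (0.617%). The study picked agt and nkcc2 among genes that differed on these arrays, so the tests here are not independent evidence of a difference.

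**Figure D1:**
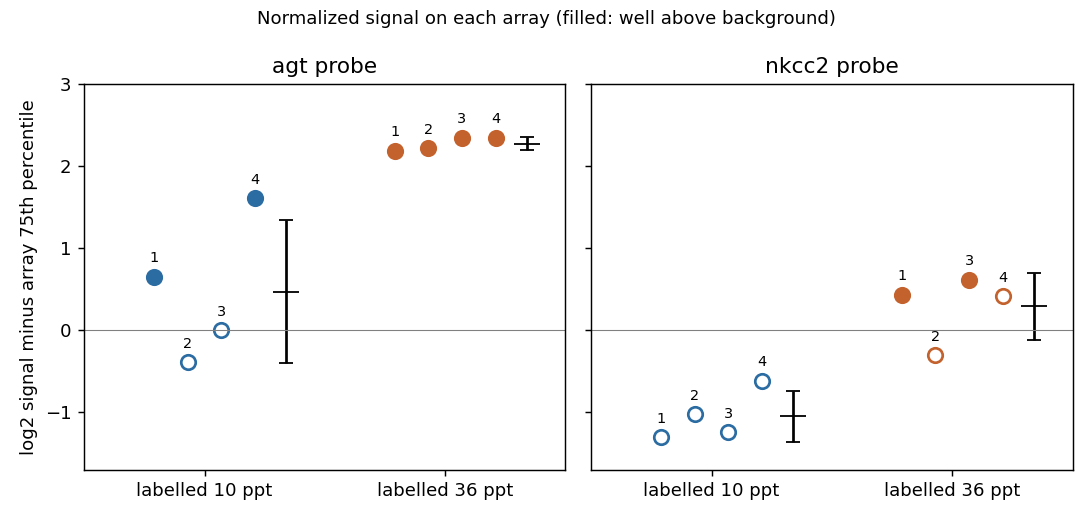
Normalized signal of agt (left) and nkcc2 (right) on each array, in log2 units relative to the 75th percentile of the array, by labelled salinity. Numbers are replicates, filled points are well above background, and bars give the mean and SD over 4 arrays. No array labelled 10 ppt reached the lowest array labelled 36 ppt for either gene. Replicate 4 labelled 10 ppt came closest for each gene (1.60 for agt and -0.62 for nkcc2), and the gap was smaller for nkcc2.

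The adjusted p of agt rests on a variance shared by all detected probes, since limma estimated infinite prior degrees of freedom. With a variance of its own for each salinity (unequal-variance test) it was 0.196, and with normexp background correction it was 0.578.

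Each signal that was not well above background was raised to the lowest signal well above background on its array, or kept where already higher. With these values agt was 2.80-fold lower at labelled 10 ppt. The level is no strict bound. On replicate 3 labelled 10 ppt agt lay above it (546 against 423) without being well above background. On the 4 arrays with a passed grid the measured difference was -1.94, which is 3.83-fold.

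The agt value of replicate 4 labelled 10 ppt was measured in a bright part of that array. The local background beside the spot was 47, 45, 42.5 and 418.5 on replicates 1 to 4 labelled 10 ppt, and 47, 443.5, 40.5 and 184 on replicates 1 to 4 labelled 36 ppt. The raw signal before background subtraction was 815, 869, 611 and 4661.5 on the arrays labelled 10 ppt, and 4160.5, 5754, 3207.5 and 4488.5 on those labelled 36 ppt. On this raw scale the salinities overlapped through that 1 array (exact two-sided permutation p = 0.114).

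The surrounding spots were examined as a measure chosen after the values had been seen. They were the 150 non-control spots within 8 rows and 4 columns of agt. On replicate 4 labelled 10 ppt the median normalized signal of these spots was 1.47, close to the 1.60 of agt itself, whereas the median over all probes of that array was -0.84. There 32% of the surrounding spots were at or above agt and 37.3% were well above background, against 11.1% of the whole array. On the other 7 arrays the surrounding median ran between -3.18 and -0.47.

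Relative to the surrounding median, agt stood 3.21, 0.76, 2.30 and 0.13 log2 units higher on replicates 1 to 4 labelled 10 ppt, and 5.36, 2.68, 5.44 and 3.59 higher on replicates 1 to 4 labelled 36 ppt. The means were 1.60 ± 1.41 at labelled 10 ppt and 4.27 ± 1.36 at labelled 36 ppt (SD, n = 4 each), a difference of -2.67, and the salinities now overlapped. Every array labelled 36 ppt exceeded the array of its own number labelled 10 ppt. The part of the bright surroundings in the value of replicate 4 was not tested. Without that array, singled out after the values had been seen, the difference was -2.18. Its adjusted p was 1.95e-12 by limma, the lowest of the fits without single arrays, with the same filter and shared variance.

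**Figure D2:**
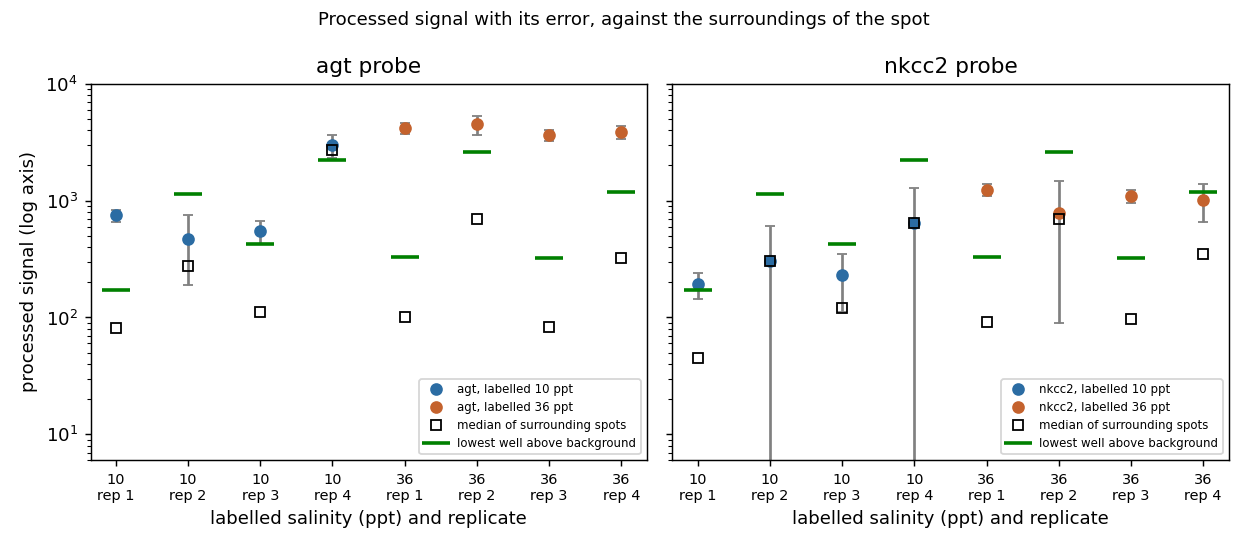
Processed signal (log axis) of agt (left) and nkcc2 (right) on each array, with the error of the image software as bars, which run past the lower axis for nkcc2 on replicates 2 and 4 labelled 10 ppt. Squares are the median of the surrounding spots and green lines the lowest signal well above background on the array. On replicate 4 labelled 10 ppt the agt spot (2982) was near the level of its surroundings, and on replicates 2 and 4 labelled 10 ppt the nkcc2 spot was at that level.

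The nkcc2 signal was also lower on every array labelled 10 ppt, but it was dim. The processed signal was 193 ± 47.8, 303 ± 302, 231 ± 120 and 640 ± 638 on replicates 1 to 4 labelled 10 ppt, and 1238 ± 153, 782 ± 691, 1092 ± 144 and 1012 ± 362 on replicates 1 to 4 labelled 36 ppt. None of the arrays labelled 10 ppt was well above background, and of those labelled 36 ppt replicates 1 and 3 were. On replicates 2 and 4 labelled 10 ppt the error was 99.4% and 99.7% of the signal, and the software did not find the spot positive and significant.

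After scaling, nkcc2 was -1.30, -1.02, -1.24 and -0.62 on replicates 1 to 4 labelled 10 ppt, and 0.43, -0.30, 0.61 and 0.41 on replicates 1 to 4 labelled 36 ppt. The means were -1.05 ± 0.31 at labelled 10 ppt and 0.29 ± 0.40 at labelled 36 ppt (SD, n = 4 each). The salinities did not overlap, with a gap of 0.31 log2 units. Of all probes with a value on every array, 3.95% were lower in the same way. The gap lay between replicate 4 labelled 10 ppt and replicate 2 labelled 36 ppt, neither well above background. On replicates 2 and 4 labelled 10 ppt the signal hardly exceeded its error. The gap, the SD at labelled 10 ppt and the tests thus rest partly on values of uncertain size. The difference of the means was -1.33. Its SE was 0.42 by limma, which draws partly on the variance of other probes, and 0.26 from the spread of nkcc2 alone. The exact two-sided permutation test gave p = 0.0286, or 0.125 within the replicate numbers, again the smallest possible.

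Since nkcc2 was not detected in either salinity, it was tested by limma over all 43441 probes, where it was not called. Its unadjusted p was 0.0104 and its adjusted p was 0.865. In that fit 0.0414% of the probes were called, and 3.4% were lower at labelled 10 ppt with an unadjusted p under the threshold of 0.05. A fall as large or larger was found for 705 of the 43441 probes (1.62%), whose median difference was 0.13. The call depended on the fit. When replicate number was a block, the adjusted p of nkcc2 was 0.0456, in a fit that called 2.29% of the probes. That fit had infinite prior degrees of freedom, against 3.74 without the block, so this p rests on a variance shared by all probes. With only probes well above background on at least 2 arrays it was 0.0359, in a fit that called 4.38%, but nkcc2 passed that filter only through replicates 1 and 3 labelled 36 ppt, where it is high.

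The software found nkcc2 well above background on none of the 4 arrays labelled 10 ppt, so its size there is uncertain. With these signals raised in the same way, nkcc2 was 1.14-fold lower at labelled 10 ppt than at labelled 36 ppt. The mean at labelled 36 ppt is the measured one and includes 2 arrays not well above background. On the 4 arrays with a passed grid, where both arrays labelled 36 ppt were well above background, nkcc2 was 2.56-fold lower. Neither value is a strict minimum. On replicate 1 labelled 10 ppt nkcc2 lay above the level (193 against 173) without being well above background.

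The nkcc2 spot lay in a dark part of the arrays. Its local background was 39.5, 40, 34 and 63 on replicates 1 to 4 labelled 10 ppt, and 40.5, 41.5, 31 and 39 on replicates 1 to 4 labelled 36 ppt. Its raw signal was 259, 272, 278 and 530 on the arrays labelled 10 ppt, and 1092, 833, 938 and 926 on those labelled 36 ppt. Unlike for agt, the salinities did not overlap on the raw scale (exact two-sided permutation p = 0.0286, the smallest possible). On replicate 4 labelled 10 ppt the raw signal lay below the median of the array's negative control spots (530 against 2511). The same held for replicates 2 and 4 labelled 36 ppt (833 against 1349 and 926 against 1138). The raw separation is therefore not a clearer result than that of agt. The share of all probes that separate on this scale is not given here. Raw signals are unscaled, and without scaling the median difference of the processed signals over all probes was -0.28. Relative to its 142 surrounding spots nkcc2 stood 2.10, -0.0062, 0.95 and -0.0073 log2 units apart on replicates 1 to 4 labelled 10 ppt, and 3.75, 0.17, 3.50 and 1.53 apart on replicates 1 to 4 labelled 36 ppt. On replicates 2 and 4 labelled 10 ppt nkcc2 was thus at the median of its surroundings, and on replicate 2 labelled 36 ppt near it. The surrounding spots are other non-control probes, so their median was not measured on blank spots. On replicates 2 and 4 labelled 10 ppt, however, only 11.3% and 7.04% of them were well above background.

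Both genes were lower at labelled 10 ppt within each slide, each class of grid and each pair of arrays with the same number. These signs follow from the lack of overlap between the salinities and are no further support. By slide, the difference of agt was -2.07 on slide 1 and -1.54 on slide 2, and that of nkcc2 was -1.23 and -1.44. By grid, the difference of agt was -1.94 with a passed grid and -1.67 without, and that of nkcc2 was -1.79 and -0.87. The difference of nkcc2 was thus smaller on the arrays with a failed grid, where none of its signals was well above background.

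By number, the difference of agt was -1.53, -2.61, -2.34 and -0.74 for replicates 1 to 4, and that of nkcc2 was -1.74, -0.72, -1.85 and -1.03. The SD over the 4 numbers was 0.84 for agt and 0.55 for nkcc2. The numbers with the smallest differences were thus not the same for both, replicate 4 for agt and replicate 2 for nkcc2.

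The log2 ratio of agt to nkcc2 within an array was also compared between salinities, since a constant shift of the whole array leaves it unchanged. Its mean was 1.51 ± 0.72 at labelled 10 ppt and 1.98 ± 0.37 at labelled 36 ppt (SD, n = 4 each), and the arrays overlapped. The difference of -0.47 did not pass an exact two-sided permutation test (p = 0.314). As nkcc2 was well above background on 2 of the 8 arrays, most of these ratios rest on dim signals, and the test does not show whether the genes moved by equal amounts. By number it was 0.20, -1.89, -0.49 and 0.29, so that its sign varied from pair to pair. Over the 8 arrays the signals of agt and nkcc2 had a Pearson's r of 0.870, and after the mean of each salinity was removed r was 0.421, both as descriptions of points that share slides and background classes.

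Spike-in transcripts, added to every labelling reaction in like amounts, had higher means at labelled 10 ppt after the same scaling. Of the 10 spike-in probes, 2 were saturated on all 8 arrays and 1 on 2 arrays, and 3 dim ones differed by 0.19 to 0.27 log2 units, within their SDs of 1.21 to 1.24 at labelled 10 ppt and 1.35 to 1.40 at labelled 36 ppt. The remaining 4 were 0.59 to 0.84 log2 units higher at labelled 10 ppt. Their SDs were 0.24 to 0.65 at labelled 10 ppt and 0.26 to 0.36 at labelled 36 ppt. Scaled to the mean of the spike-in spots, the difference of agt was -2.32 and that of nkcc2 was -1.85. Relative to the median probe of the same fit, agt lay at -1.40 under 75th percentile scaling and -1.41 under scaling to the median of the detected probes. Both scalings subtract a constant from each array, so these values were nearly bound to be alike and are no sign of robustness. Under quantile normalization, which could have moved the value, it was -1.55. The scaling also set how the calls divided: 96.6% of the called probes were lower at labelled 10 ppt under 75th percentile scaling, 56.0% under quantile normalization and 48.5% under scaling to the median of the detected probes. Under each of these 3 scalings agt was called lower, as were 917, 1033 and 1127 of the 4587 detected probes, in the same order. As agt is among the detected probes only through labelled 36 ppt, where it is high, these calls are no separate support.

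**Figure D3:**
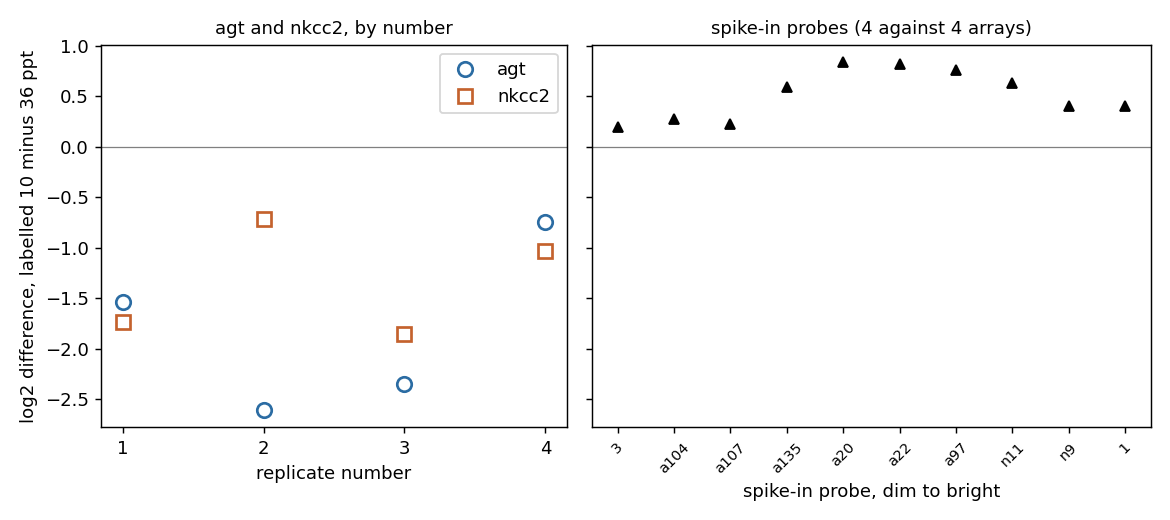
Left, difference of agt (circles) and nkcc2 (squares) in log2 units, labelled 10 minus 36 ppt, for each replicate number. Right, the same difference between the means of 4 and 4 arrays for the 10 spike-in probes, ordered from dim to bright. All 8 differences of the genes were below 0, which follows from the lack of overlap between the salinities. The spike-in differences were above 0, between 0.59 and 0.84 for the 4 probes that were neither saturated on any array nor among the 3 dimmest.

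**Figure D4:**
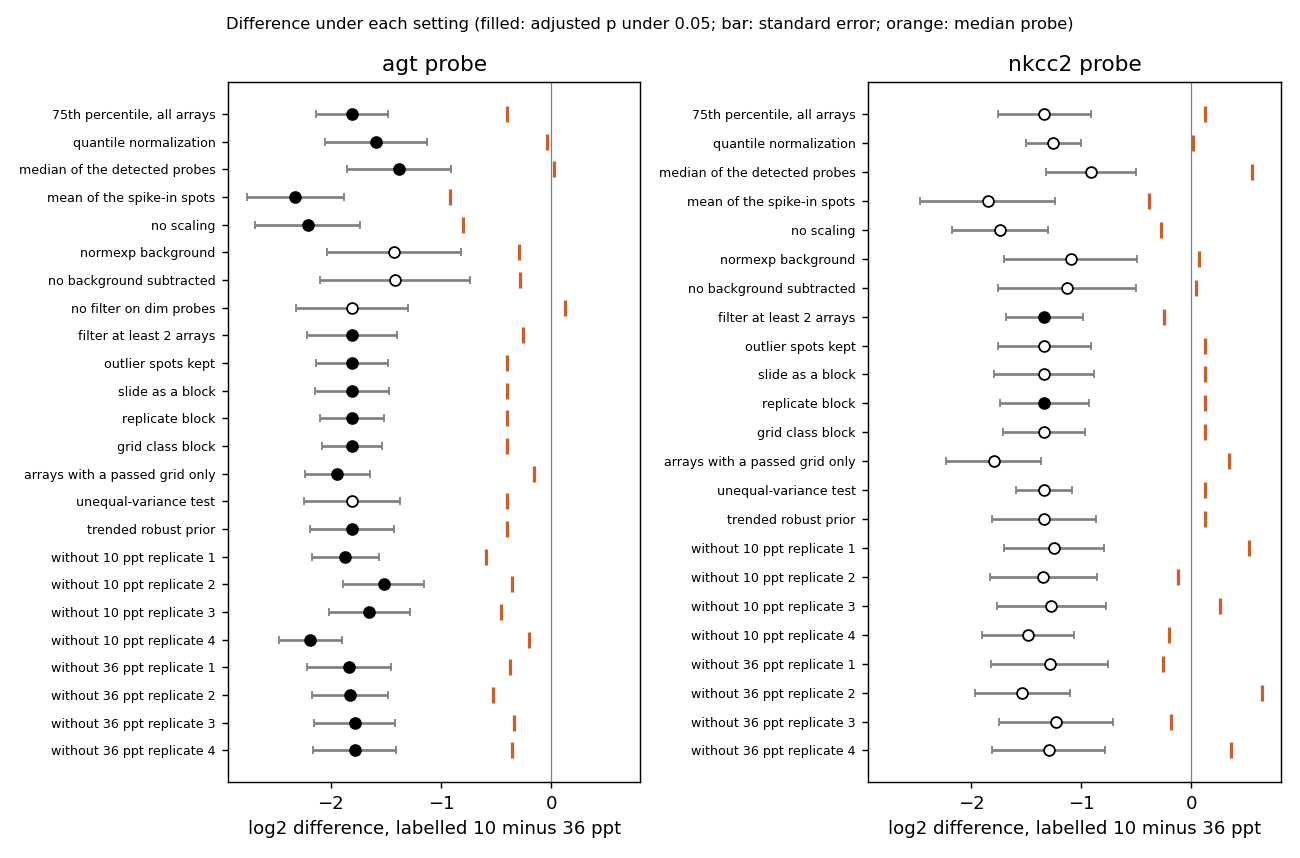
Difference of agt (left) and nkcc2 (right) in log2 units, labelled 10 minus 36 ppt, under each setting of the analysis, with the standard error of each fit as bars. Filled points passed an adjusted p under 0.05 and orange marks give the median probe of the fit. Every setting shown left both genes lower at labelled 10 ppt, whereas the calls changed with the background correction, the filter, the replicate block and the test. Only the scalings and background corrections could have changed the sign. Filters, blocks and tests leave the difference as it is, and leaving out arrays cannot reverse salinities that do not overlap.

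By the labels of the deposited table, both genes were higher at 10 ppt. Its values are log2 signals scaled to the 75th percentile, with the median of each spot across arrays set to 0. For agt they were 0.29, 0.31, 0.46 and 0.46 in the columns of replicates 1 to 4 at 10 ppt, and -1.24, -2.29, -1.89 and -0.29 in those at 36 ppt. The difference was 1.81, with an adjusted p of 9.5e-07 by limma over the 4587 detected probes. This p has the same filter and shared variance as that of the scanner labels, and is no separate support.

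For nkcc2 the table gave 0.90, 0.15, 1.09 and 0.89 at 10 ppt, and -0.83, -0.56, -0.78 and -0.15 at 36 ppt. The difference was 1.34, with an adjusted p of 0.807 by limma over 42409 probes. Each table value lay within 0.012 (agt) or 0.018 (nkcc2) of the centred scanner value of the other salinity, and at least 0.74 (agt) or 0.72 (nkcc2) from that of its own label. The sizes of both differences are therefore nearly the same in the 2 deposits, and their direction depends on which labels are right.

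The other genes of the same list run in the same direction as agt and nkcc2. Of the 11 genes of the list that were matched to a probe by number, 11 had a lower mean at labelled 10 ppt, with differences between -4.13 and -1.05. These cover digestive proteases, immune proteins, a chaperone and an enzyme of the pentose phosphate pathway. Of these 11, 8 were detected, 6 of them only through labelled 36 ppt, and all 8 were called, where 20.7% of the detected probes were called. All were selected by the study from results of these arrays, and their shared direction is not independent evidence.

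The probes whose pattern was most like that of each gene were taken from the 4459 detected probes with a value on every array, by Pearson's r over the 8 arrays. For agt they were Contig3992 (r = 0.989), Contig8782 (r = 0.989) and Contig50269 (r = 0.982), and 23 probes had an r over 0.9. No gene name is paired with these contigs in the files. Their differences were -1.28, -1.53 and -1.49, and each was well above background on 3 of the 4 arrays labelled 10 ppt.

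All 3 lay close to agt on the array, by 4 rows and 6 columns, 19 rows and 0 columns, and 28 rows and 4 columns, on an array of 532 rows and 85 columns. Within 28 rows and 6 columns of agt lay 71 of 4766 spots of detected probes (1.49%). This window was set by the distances of the same 3 probes, so the share does not measure chance. All 3 were also high on replicate 4 labelled 10 ppt (2.30, 2.10 and 2.16), with local backgrounds of 699.5, 463 and 564 there. The part of this shared position in their likeness to agt was not tested.

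For nkcc2 the most alike probes were Contig6949 (r = 0.955), Contig36921 (r = 0.948) and Contig36925 (r = 0.937), and 24 probes had an r over 0.9. They lay farther away, by 384 rows and 19 columns, 394 rows and 51 columns, and 29 rows and 30 columns. Contig6949 and Contig36925 were well above background on no array labelled 10 ppt and all 4 labelled 36 ppt, and no size is given for their differences. Contig36921, well above background on all 8 arrays, had a difference of -1.02. As these 3 probes were chosen for their likeness to nkcc2, their direction is no further evidence.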

How the data were processed

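Whole-larva RNA was measured on one-colour Agilent arrays. The authors deposited the scanner output, whose intensity per spot (processed signal) was corrected for background and spatial trends but not scaled across arrays. Agilent Feature Extraction is given as version 9.1 in the submitters' processing notes and 10.7.3.1 in the file headers. A second file deposited by the authors holds log2 values, centred per spot.

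From the processed signals, log2 values minus the 75th percentile of non-control spots (43801 of 45218) were computed, outlier spots were dropped and replicate spots averaged. Salinities were compared in R (4.3.3) with limma (3.58.1), salinity being the only term, and Benjamini-Hochberg adjustment over all probes of the fit. Exact permutation tests used scipy (1.17.1). The fit was tested on simulated data. The genes, the gene list and the tests were chosen with earlier results of these data known. The named probes were the 2 genes and, for each, the 3 detected probes most correlated with it. The raised level of dim signals took, per array, the higher of the lowest signal well above background and the probe's own.

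After subtraction of the salinity means, arrays sharing a number correlated across detected probes (r = 0.358, 0.380, 0.459 and 0.428 for numbers 1 to 4), so the number was also fitted as a block. The labels number the replicates alike in both salinities and tie the numbers to no litter or batch, whereas slide and grid class go with the number. The normexp correction (offset 50) used the median spot intensity, since the scanner files used here hold no mean intensity. Alternatives added after the values were seen were the signal relative to the surrounding spots and the permutation within replicate numbers. A further osmoregulation gene of the list is not reported here. The number of arrays limits the precision.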

Additional observations from a re-analysis of the deposited data

Results flagged for a closer look

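On replicate 4 labelled 10 ppt, 4 values stood far from those of the other 3 arrays of that salinity. The distance is given as the gap to the nearest array divided by the range of all 4, and each of these ratios exceeded Dixon's critical value for 4 samples. The processed signal of agt was 2982 there (ratio 0.890), its raw signal 4661.5 (ratio 0.936) and its local background 418.5 (ratio 0.988). The raw signal of nkcc2 was 530 there (ratio 0.930). In all, 18 groups of 4 arrays were examined in this way, of which chance alone marks about 1 in 20. On the scaled log2 values agt and nkcc2 had ratios of 0.478 and 0.589 at labelled 10 ppt, which did not exceed it.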

How the results depend on the processing

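Apart from the deposited table with its own labels, each alternative left agt and nkcc2 lower at labelled 10 ppt. For many alternatives this sign was fixed in advance. Filters, blocks and tests leave the difference as it is, and leaving out arrays cannot reverse salinities that do not overlap. The table reversed the differences of agt (1.81), nkcc2 (1.34) and their ratio (0.47). The call of agt was lost with normexp background correction (difference -1.42, adjusted p = 0.578), with no background subtracted (-1.42, adjusted p = 1.00), with no filter on dim probes (-1.81, adjusted p = 0.625) and with an unequal-variance test (-1.81, adjusted p = 0.196). An exact permutation within the replicate numbers (-1.81 for agt, p = 0.125, the smallest possible) cannot pass the threshold. The call of agt was kept under 19 others, while 4 gave a value of the same sign without a test, among them the surrounding spots (-2.67 for agt and -1.48 for nkcc2). Of the 19, all but the filter of at least 2 arrays used the same detected probes. As agt entered these only through labelled 36 ppt, where it is high, the 19 are not separate support. A filter requiring all 8 arrays left out agt. The call of nkcc2 was gained with the replicate block (-1.33, adjusted p = 0.0456) and with a filter of at least 2 arrays (-1.33, adjusted p = 0.0359). Dim signals of nkcc2 at the raised level gave -0.19. The replicate block left agt called (adjusted p = 1.75e-08) and the ratio uncalled (exact p = 0.625). It called 1225 detected probes, and 993 over all probes where 18 were called without it. The 993 rest on a variance shared by all probes and the 18 do not, so these counts differ in more than the block. Without single arrays the difference ran between -2.18 (without replicate 4 labelled 10 ppt) and -1.52 for agt, between -1.53 and -1.23 for nkcc2, and between -0.71 and -0.18 for the ratio. The detected probes called, 949 in all, numbered 1844 with quantile normalization, 2326 with the median of the detected probes, 1891 with the spike-in mean and 3571 without scaling. They numbered 35 with normexp and 24 with no background subtracted. The filters change the set tested: 18 of 43441 probes were called with no filter, and 428 of 3167 with a filter of all 8 arrays. With the grid class as a block the detected probes called were 1449, and on the arrays with a passed grid only they were 601. With the unequal-variance test they were 15 of 4460. Without single arrays they ran between 554 and 1950, with 1950 and 570 without replicates 1 and 2 labelled 10 ppt, and 598, 554 and 561 without replicates 1, 3 and 4 labelled 36 ppt. Signal over background limits nkcc2, well above background on 2 of 8 arrays, more than agt, so on 6 of 8.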
